A study of Homo sapiens with 12 samples.

Results

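The genes described here encode the sterol regulatory element-binding protein (SREBP) pathway and the enzymes it controls: 5 regulators, 1 sterol carrier, 19 enzymes of cholesterol synthesis and 8 of fatty acid and lipid synthesis. They were taken from the deposited count table by symbol, with a mean CPM (count scaled to library size) of at least 0.5 over the 12 libraries. All 33 listed genes qualified, out of 23615 genes in the table, of which 14851 reached that level. The least abundant members were FADS2 and TM7SF2, both at 14.5 CPM, so no member lay near the threshold and none fell outside it. SC5D was found under its older symbol, SC5DL. The set was taken up because INSIG1 was already known to be lower in the knockdown line. Differences between the lines are therefore given below as descriptions, without p-values. Where a line difference is said to pass or miss the threshold on the adjusted p, in any setting, that is also a description. It sets the size of a difference beside its spread and is not a test of the gene or the set. The responses to treatment were not used in the choice and were tested.

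The cells were HEK293T, an established human embryonic kidney line that carries adenoviral and SV40 genes. Both lines studied had been made by lentiviral delivery of a pLKO hairpin vector and selected with puromycin as populations: shHuR carried a hairpin against ELAVL1, which encodes the RNA-binding protein HuR, and shControl carried a control hairpin. As each line rests on 1 hairpin, the loss of HuR and other effects of line or hairpin cannot be told apart. Cells of each line were left untreated, exposed to 25 µM HNE alkyne (a tagged form of the lipid peroxidation product 4-hydroxynonenal) or exposed to 225 µM hydrogen peroxide (H2O2), for 18 h. Each of the 6 groups had 2 biological replicates, and RNA-seq was done on total RNA after removal of ribosomal RNA.

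Total counts ranged from 24855946 to 29907256 per library, and the 33 members took 0.322% to 0.379% of them. ELAVL1 was at 69.3 to 74.5 CPM in the 6 shHuR libraries and at 86.0 to 99.4 CPM in the 6 shControl libraries, so the groups did not overlap and a large part of the transcript remained. Of 8 markers of HEK293T cells, 6 were present, from NEFM at 3.41 to 12.1 CPM up to VIM at 346 to 527 CPM. PAX2 stayed at or below 0.489 CPM and LHX1 at or below 1.26 CPM. Of 14 markers of other cell types, 10 had a mean below 0.5 CPM and the highest value of any was 6.40 CPM, for COL3A1. CPM values are scaled with TMM factors, and in bulk RNA fewer cells of a type and less RNA per cell cannot be told apart.

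SREBPs are made as membrane-bound precursors in the endoplasmic reticulum, where SCAP escorts them and the INSIG proteins hold the complex back when sterols are plentiful. When sterols are scarce the complex moves to the Golgi, proteases release the transcription factor, and it switches on its target genes. The product of SREBF2 mainly drives cholesterol synthesis and that of SREBF1 mainly drives fatty acid synthesis, and INSIG1 is itself an SREBP target, which closes a feedback loop. HuR binds AU-rich and U-rich stretches in the 3′ untranslated regions of many messenger RNAs.

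SREBPs act through short sequence elements that often lie close to the transcription starts of their targets. The 250 bases before the start are shown for INSIG1, STARD4 and MSMO1, examples of genes that were lower in shHuR and held a motif searched for. SREBF2 is shown because it alone held the full sterol element. Other members that differed also held motifs, among them IDI1 and SCD, lower in shHuR, and NSDHL (5 NF-Y motifs), ACLY and ACACA, higher in shHuR. The choice of sequences is no comparison of motif and direction. INSIG2 and SREBF1 also differed between the lines, and their windows, 2 for INSIG2 and 1 for SREBF1, held 0 matches and are not shown. The windows of CYP51A1, ELOVL6, FADS1 and LPIN1, which differed too, likewise held 0 matches. The sequences shown are RefSeq sequences of GRCh38.p14, read 5′ to 3′ on the gene's own strand. Capitals mark the sterol regulatory element in its classical form (the capitals at -134 in SREBF2), the E-box CACGTG and the NF-Y motif CCAAT, the last also on the opposite strand, where it reads ATTGG.
INSIG1, chr7:155297628-155297877, plus strand: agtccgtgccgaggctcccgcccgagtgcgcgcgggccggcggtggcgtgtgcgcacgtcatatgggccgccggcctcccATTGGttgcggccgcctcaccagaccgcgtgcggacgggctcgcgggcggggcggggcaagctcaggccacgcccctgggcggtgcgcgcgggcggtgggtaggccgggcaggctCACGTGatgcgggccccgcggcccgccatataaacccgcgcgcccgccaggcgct
SREBF2, chr22:41832855-41833104, plus strand: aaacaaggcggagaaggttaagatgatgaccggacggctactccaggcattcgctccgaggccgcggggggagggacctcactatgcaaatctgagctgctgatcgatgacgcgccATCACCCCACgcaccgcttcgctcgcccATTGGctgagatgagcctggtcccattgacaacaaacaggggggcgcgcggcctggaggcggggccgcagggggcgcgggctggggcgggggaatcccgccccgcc
STARD4, chr5:111512536-111512785, minus strand: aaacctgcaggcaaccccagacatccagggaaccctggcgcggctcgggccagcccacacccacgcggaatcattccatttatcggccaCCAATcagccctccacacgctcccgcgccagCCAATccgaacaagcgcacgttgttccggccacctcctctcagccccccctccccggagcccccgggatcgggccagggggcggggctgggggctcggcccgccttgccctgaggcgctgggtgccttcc
MSMO1, chr4:165327419-165327668, plus strand: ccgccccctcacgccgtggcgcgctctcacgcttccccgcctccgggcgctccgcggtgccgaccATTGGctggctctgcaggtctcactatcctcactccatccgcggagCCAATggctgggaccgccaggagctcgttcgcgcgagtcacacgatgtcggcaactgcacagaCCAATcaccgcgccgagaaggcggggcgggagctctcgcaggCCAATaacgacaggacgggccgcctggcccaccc

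In this stretch INSIG1 held an NF-Y motif at -170 and an E-box at -55, counted from the start of transcription. SREBF2 held the sterol element at -134 followed by an NF-Y motif at -106. STARD4 held 2 NF-Y motifs and MSMO1 held 4. For the shares, each RefSeq window was searched over all its 300 bases, which add the 50 after the start to the 250 before it. Such windows were found for 29 of the 33 members, 43 windows in all because some genes have several starts. The classical sterol element, searched on both strands, was in 1 of these 43 and in 0.0456% of the 35116 windows of all genes. Its shorter form TCACNCCAC was in the same single member window, where it overlaps the longer one, and in 1.13% of all windows. CCAAT was in 58.1% of member windows and 34.6% of all windows, and among the windows of the enzymes from squalene to cholesterol it was in 81.8%, or 9 of 11. CACGTG was in 11.6% of member windows and 7.26% of all. These are matches of letters and show no binding.

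The 3′ untranslated regions of the members were close to those of other genes in length and AU-rich content. In GENCODE 29 transcripts, their median length was 1214 bases with a median of 3 ATTTA pentamers, against 1084 bases and 2 pentamers over the 13598 coding genes tested. The longer motif TATTTAT was present in 10 of 33 members (30.3%) and in 32.4% of the coding genes. STARD4 had 14 ATTTA pentamers, IDI1 and ELOVL6 had 12 each, INSIG1 had 6, and SCAP and LSS had 0. ACLY with 6 and ACACA with 5 were higher in shHuR, while SREBF1 with 1 and SQLE and MSMO1 with 3 each were lower. These genes are examples, and pentamers were not tested against the direction of the line difference.

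INSIG1, which encodes the sterol-sensing anchor that retains SCAP in the endoplasmic reticulum, had the largest difference between the lines of any member. In shControl cells it stood at 121 and 112 CPM without treatment, at 121 and 115 after HNE and at 117 and 128 after H2O2. The shHuR libraries gave 64.1 and 63.3 CPM without treatment, 61.0 and 61.9 after HNE and 70.5 and 72.4 after H2O2. Every shHuR library was far below every shControl library, whatever the treatment. The mean was 65.5 ± 4.71 CPM in shHuR and 119 ± 5.54 CPM in shControl (SD over the 6 libraries of a line, which span the 3 treatments). The log2 fold change, shHuR minus shControl, was -0.86 (SE 0.0428), or 0.550 times the shControl level, which ranked 292 from the lowest of the 16005 genes tested. It was -0.87 in untreated cells, -0.95 with HNE and -0.78 with H2O2, 3 comparisons that share no library.

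INSIG2, the second retention protein, was lower as well. Its shControl values were 34.0 and 33.6 CPM without treatment, 29.9 and 33.2 after HNE, and 32.2 and 28.2 after H2O2. Its shHuR values were 26.9 and 22.4 CPM, 25.9 and 23.0, and 21.0 and 23.9 in the same order. The highest shHuR library lay just under the lowest shControl library, and the log2 fold change was -0.42 (SE 0.0637).

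SCAP, the escort protein, ranged from 88.5 to 107 CPM in shControl and from 93.8 to 103 CPM in shHuR, so the lines overlapped over the 3 treatments together. In untreated cells they did not, with 88.5 and 91.2 CPM in shControl and 95.4 and 103 CPM in shHuR. The log2 fold change of SCAP averaged over treatments was 0.00 (SE 0.0474), with a 95% interval of -0.10 to 0.10.

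SREBF1 ranged from 21.0 to 27.2 CPM in shControl and from 17.4 to 19.9 CPM in shHuR, without overlap, for a log2 fold change of -0.37 (SE 0.0662). SREBF2 ranged from 66.4 to 83.0 CPM in shControl and from 60.0 to 74.6 CPM in shHuR, with overlap. Its log2 fold change was -0.14 (SE 0.0618), and it was not among the genes past the threshold.

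On the per-length scale of the authors' FPKM values, INSIG1 was the most abundant regulator of shControl cells, at 42.3 ± 1.97 FPKM. SCAP followed at 23.5 ± 1.73, SREBF2 at 17.4 ± 1.36, INSIG2 at 13.1 ± 0.966 and SREBF1 at 4.85 ± 0.459 FPKM (SD, n = 6 libraries). In shHuR cells INSIG1 stood at 23.5 ± 1.70 FPKM and SCAP at 23.5 ± 0.705 FPKM, so these neighbours in the order no longer differed beyond their spread. The summed FPKM of the 5 regulators was 101 ± 3.81 in shControl and 76.4 ± 1.95 in shHuR.

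STARD4, a soluble carrier that moves cholesterol between membranes, had the second largest difference. It stood at 27.3 and 28.9 CPM in untreated, 27.3 and 30.5 CPM in HNE-treated and 29.2 and 26.6 CPM in H2O2-treated shControl cells. The shHuR values were 19.4 and 17.1, 18.3 and 15.6, and 17.8 and 16.5 CPM in the same order. No shHuR library reached the lowest shControl library, and the log2 fold change was -0.70 (SE 0.0628).

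**Figure D1:**
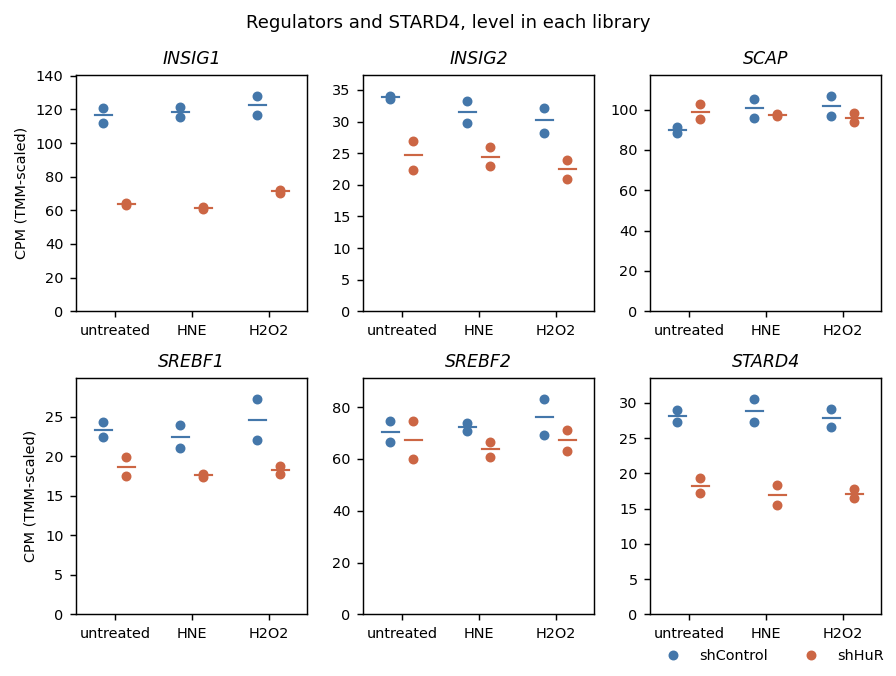
CPM (scaled with TMM) of the 5 regulators and STARD4 in each library, by treatment and line; points are libraries and short bars are means of 2. INSIG1 lay at 61.0 to 72.4 CPM in shHuR and at 112 to 128 CPM in shControl, whereas the ranges of SCAP and SREBF2 over all treatments overlapped between the lines.

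Over all 33 members, 17 (51.5%) passed an adjusted p of 0.05 in edgeR's quasi-likelihood test of the line difference averaged over treatments, 13 lower and 4 higher in shHuR. Over all genes tested 29.9% passed, 15.9% lower and 14.1% higher. The choice of genes used this contrast, so nothing is read from the counts. The same holds for the line counts within treatments and for single members that passed or missed the threshold for a line difference. Within treatments, 7 members passed in untreated cells (2 higher and 5 lower), where 7.98% of all genes did (3.50% higher and 4.48% lower). With HNE 6 passed, all lower, where 8.27% of all genes did, 5.04% lower. With H2O2 7 passed, all lower, where 7.19% of all genes did, 4.67% lower.

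Those counts within a treatment depend on single libraries. In each fit named below the number called over all genes fell as well. The untreated count went from 7 to 1 without shHuR untreated replicate 2 or without shControl untreated replicate 2, and to 3 without shControl untreated replicate 1. The HNE count went from 6 to 3 without shHuR HNE replicate 1 and to 2 without replicate 2, and the H2O2 count went from 7 to 2 without either shHuR H2O2 replicate. It went to 4 without either replicate of the shHuR HNE or the untreated shControl group, or without shControl H2O2 replicate 1.

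The median log2 fold change was -0.09 over the members and -0.00 over all genes. By estimate, 16 members were lower in all 3 treatments, against 29.3% of all genes, and 7 were higher in all 3, against 27.9%. INSIG1, STARD4, SQLE and MSMO1 passed the threshold in each of the 3 treatments, all lower, as 1.88% of genes did, and 0 members passed higher in each, as 1.07% of genes did. These counts come from the contrast used in the choice and are likewise given with nothing read from them. All 6 shHuR libraries lay below all 6 shControl libraries for 7 members, namely INSIG1, INSIG2, SREBF1, STARD4, SQLE, MSMO1 and ELOVL6. Over all genes 6.84% showed that separation. The reverse held for 0 members and for 5.25% of all genes.

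The early enzymes, which build squalene from acetyl units through mevalonate, had line differences from -0.18 to 0.17. Of 9, only IDI1 (isopentenyl diphosphate isomerase, -0.18, SE 0.0455) and FDFT1 (squalene synthase, -0.14, SE 0.0467) passed the threshold, both lower in shHuR. Over all genes 15.9% passed lower and 14.1% higher. FDFT1 missed it in 9 of the 22 other settings tried. HMGCS1, which makes the precursor of mevalonate, was at 122 to 144 CPM in shControl and 119 to 143 CPM in shHuR. FDPS, which makes farnesyl diphosphate, was at 130 to 162 CPM in shControl and 126 to 150 CPM in shHuR. Both ranges almost coincide, and the log2 fold changes were -0.04 for HMGCS1 and -0.06 for FDPS. MVK, PMVK, MVD, GGPS1 and ACAT2 had estimates from -0.09 to 0.17. The summed FPKM of the 9 was 400.4 ± 24.6 in shControl and 393 ± 19.5 in shHuR (SD, n = 6).

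The later enzymes, which turn squalene into cholesterol, held larger differences among those lower in shHuR, and others were higher. SQLE, squalene epoxidase, a rate-limiting step, was at 131.6 and 131.6 CPM in untreated, 129 and 136 CPM in HNE-treated and 133 and 138 CPM in H2O2-treated shControl cells. It was at 109 and 107, 102 and 100.2, and 107 and 112 CPM in the corresponding shHuR cells. The lines were separated in every treatment, with a log2 fold change of -0.33 (SE 0.0371).

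MSMO1, the methylsterol oxidase of sterol demethylation, ranged from 69.9 to 78.9 CPM in shControl and from 52.9 to 61.4 CPM in shHuR. The ranges did not touch, and the log2 fold change was -0.40 (SE 0.0478). CYP51A1, lanosterol demethylase, had a log2 fold change of -0.17 (SE 0.0385) with overlapping lines. NSDHL, which acts next to MSMO1 in the same demethylation, was at 36.5 to 41.7 CPM in shControl and 40.3 to 46.7 CPM in shHuR, for a log2 fold change of 0.16 (SE 0.0501). It missed the threshold in 4 of 22 settings. LSS, TM7SF2, HSD17B7, EBP, SC5D and DHCR7 lay between -0.12 and 0.13 and did not pass in the average over treatments. With HNE alone LSS was at -0.30 (SE 0.0773) and was past the threshold, which it missed in 9 of 22 settings. Of the 10 enzymes, 3 passed lower and 1 passed higher in the average, where 15.9% and 14.1% of all genes did. Their summed FPKM was 339 ± 8.44 in shControl and 320 ± 8.79 in shHuR.

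Enzymes of fatty acid synthesis went both ways. ACLY, which supplies cytosolic acetyl-CoA, in shControl was at 465 and 468 CPM without treatment, 443 and 459 after HNE, and 502 and 501 after H2O2. In shHuR it was at 542 and 549, 505 and 501, and 543 and 550 CPM. Each shHuR pair was above its shControl counterpart, though the HNE-treated shHuR libraries were at the level of H2O2-treated shControl libraries. The log2 fold change was 0.17 (SE 0.0330). ACACA, acetyl-CoA carboxylase, was also higher at 0.11 (SE 0.0391), but missed the threshold in 7 of 22 settings. FASN, fatty acid synthase, was at 262 to 328 CPM in shControl and 244 to 328 CPM in shHuR, with an estimate of -0.02.

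The enzymes that elongate and desaturate the product were mostly lower. ELOVL6, an elongase of saturated fatty acids, ranged from 36.1 to 41.8 CPM in shControl and from 28.5 to 32.6 CPM in shHuR, for a log2 fold change of -0.36 (SE 0.0541). SCD, stearoyl-CoA desaturase, ranged from 535 to 661 CPM in shControl and from 458 to 556 CPM in shHuR, for a log2 fold change of -0.21 (SE 0.0474). The ELOVL6 ranges were apart and the SCD ranges overlapped at their ends.

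The neighbouring desaturase genes FADS1 and FADS2 went opposite ways, at -0.22 (SE 0.0602) and 0.26 (SE 0.0797). FADS2 passed the threshold in 20 of 22 other settings and FADS1 in 21. LPIN1, a phosphatidate phosphatase of triglyceride synthesis, had a log2 fold change of -0.29 (SE 0.0594). Of the 8 genes 3 passed higher and 4 lower, where 14.1% and 15.9% of all genes did, and the summed FPKM of the group was 307 ± 15 in shControl and 303 ± 17.1 in shHuR. The most abundant members per length were FDPS at 117 ± 9.49, ACLY at 112 ± 5.53 and SCD at 109 ± 7.95 FPKM in shControl, which do not differ beyond their spread.

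**Figure D2:**
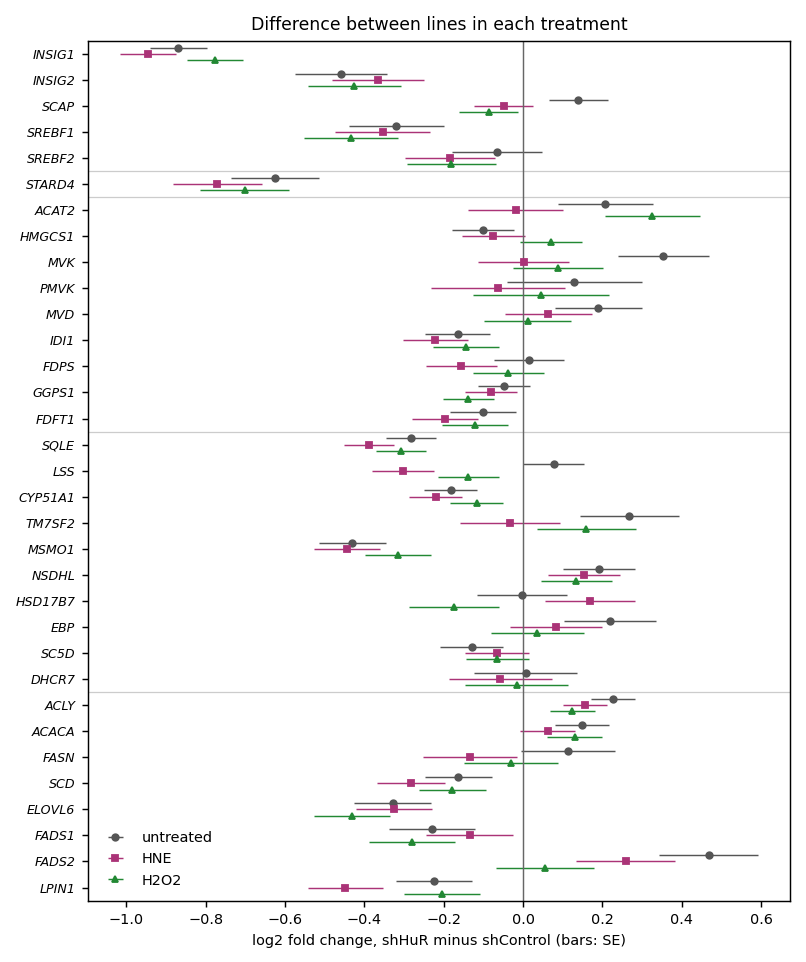
Log2 fold change, shHuR minus shControl, of each member in each treatment, grouped by role; symbols are treatments and bars are SE. INSIG1 (-0.95 to -0.78) and STARD4 (-0.77 to -0.63) lie farthest to the left in all 3 treatments, and ACLY and FADS2 lie to the right. With H2O2 the FADS2 libraries of the lines overlapped.

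**Figure D3:**
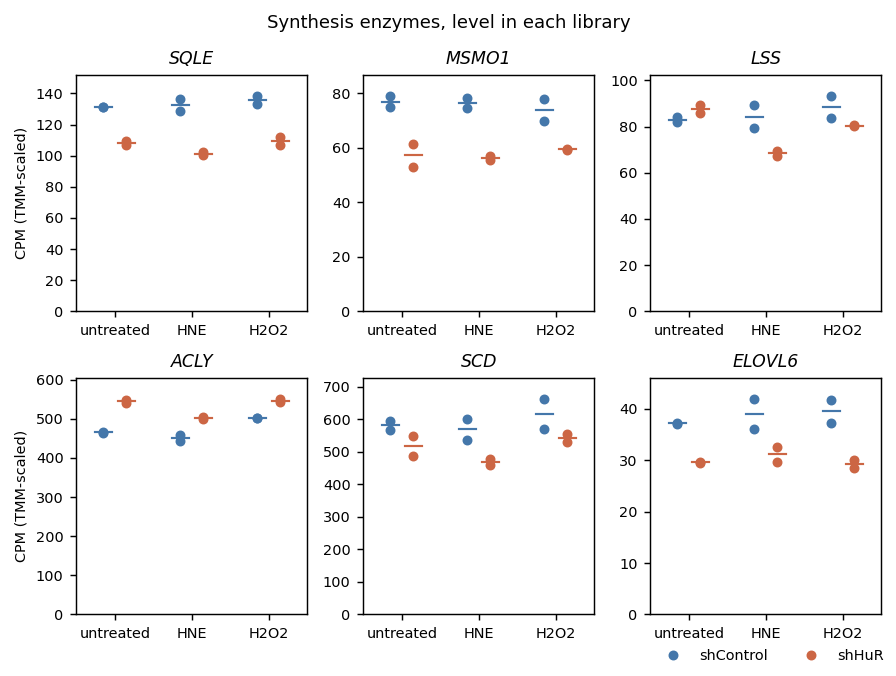
CPM (scaled with TMM) of 6 synthesis enzymes in each library, by treatment and line; points are libraries and short bars are means of 2. SQLE, MSMO1 and ELOVL6 were separated between lines in every treatment, and LSS was lowest in HNE-treated shHuR cells, at 67.5 and 69.3 CPM.

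Neither HNE nor H2O2 gave a member past the threshold. With HNE, 0 of 33 passed averaged over the lines, in shControl alone and in shHuR alone, where 0.247%, 0.0187% and 0.0750% of all genes did (edgeR's quasi-likelihood test). At an unadjusted p under 0.05 there were 2, 1 and 2 members, where 12.3%, 11.7% and 8.95% of all genes reached it. With H2O2, 0 members passed in the same 3 comparisons, as did 0.00% of all genes. At an unadjusted p under 0.05 there were 2, 1 and 1 members, where 5.45%, 4.34% and 3.37% of all genes reached it. DESeq2 called 1 member with HNE in shHuR, where it called 107 of 16005 genes, and 0 members in the other treatment comparisons. HNE and H2O2 responses are measured against the same untreated libraries.

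None of the 5 regulators passed the threshold with either treatment. With HNE, averaged over the lines, INSIG1 had a log2 estimate of -0.01 (95% interval -0.12 to 0.10), INSIG2 one of -0.06 (-0.22 to 0.11) and SCAP one of 0.07 (-0.06 to 0.20). SREBF1 had an estimate of -0.07 (-0.24 to 0.10) and SREBF2 one of -0.02 (-0.18 to 0.14). With H2O2 the estimate for INSIG1 was 0.12 (0.01 to 0.22; adjusted p = 0.900 in edgeR), and both H2O2 libraries of shHuR lay above both untreated ones. The other H2O2 estimates were -0.15 (-0.31 to 0.02) for INSIG2, 0.07 (-0.05 to 0.19) for SCAP, 0.02 (-0.16 to 0.20) for SREBF1 and 0.05 (-0.11 to 0.22) for SREBF2.

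LSS, lanosterol synthase, which closes the sterol ring system, came nearest to a treatment response. In shHuR cells it was at 85.7 and 89.2 CPM without treatment, 69.3 and 67.5 after HNE, and 80.7 and 80.2 after H2O2. In shControl cells it was at 84.1 and 81.8, 79.3 and 89.5, and 83.8 and 93.2 CPM. The HNE-treated shHuR libraries were the lowest of the 12, and no such drop was seen in shControl.

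The log2 fold change of LSS with HNE in shHuR was -0.36 (95% interval -0.52 to -0.19), with an unadjusted p of 0.000416 and an adjusted p of 0.117 in edgeR, so it did not pass. Over the other 22 settings the adjusted p ran from 0.00925 to 0.906, and LSS passed in 5 of them. Among these 5 were the fits without shControl HNE replicate 1 (adjusted p = 0.0374) and without shControl HNE replicate 2 (0.0368). In shControl the HNE estimate was 0.02 (-0.14 to 0.19). The difference between those responses was -0.38 (-0.61 to -0.15), with an unadjusted p of 0.00369 and an adjusted p of 0.712 in edgeR.

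Beyond LSS, the smallest p-values of the average HNE response belonged to HMGCS1, at -0.14 (adjusted p = 0.374 in edgeR), and FADS1, at -0.16 (adjusted p = 0.452). Leaving out each library in turn gave FADS1 estimates of -0.24 to -0.08 averaged over the lines. In shControl they ran from -0.44 to -0.02. There the HNE libraries were at 65.7 and 49.3 CPM and the untreated ones at 66.2 and 67.0 CPM. In shHuR, 29 of 33 estimates with HNE were negative, and in shControl 12 of 33 were. The share of all genes with a negative estimate was not counted, so nothing is read from these counts. Coding genes within 2 percentage points of the GC content of MVD had a median HNE response in shHuR of -0.09. Those near STARD4 had one of 0.09, and the part of base composition was not tested. The estimates of a line share the same libraries and are not independent. The member medians were -0.08 and 0.02, beside medians of -0.01 and 0.00 over all genes. Both HNE libraries lay below both untreated libraries for 13 members in shHuR, where 22.9% of all genes did, and for 5 in shControl, where 20.3% did. The 13 were FASN, SCD, ACLY, ACACA and FADS1 of fatty acid synthesis, SQLE, LSS, TM7SF2, MVK, MVD, FDPS and FDFT1 of sterol synthesis, and INSIG1. Both HNE libraries lay above for 2 members in shHuR and 4 in shControl, where 21.6% and 19.3% of all genes did. In both lines at once, ACLY and FADS1 were below, where 6.32% of all genes were, and 0 members were above, where 6.17% were.

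With H2O2, averaged over the lines, FDPS had the smallest p-value, at -0.12 (95% interval -0.22 to -0.03; adjusted p = 0.900 in edgeR). PMVK, phosphomevalonate kinase, was at -0.16 (-0.33 to 0.02). Both H2O2 libraries lay below both untreated libraries for 6 members in shHuR and 3 in shControl, where 17.8% and 16.3% of all genes did. They lay above for 2 and 6 members, where 16.4% and 16.2% did. In both lines at once, FDPS was below, where 3.18% of all genes were, and 0 members were above, where 3.00% were. These counts are near or under the shares of all genes.

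Compared directly, HNE and H2O2 also gave 0 members past the threshold, where 0.114% of all genes passed (edgeR). At an unadjusted p under 0.05 there were 4 members, where 14.2% of all genes reached it, and DESeq2 called 0. These were ACLY at -0.14, SCD at -0.17, LSS at -0.15 and INSIG1 at -0.13, all lower with HNE, with adjusted p-values in edgeR of 0.169, 0.224, 0.275 and 0.311. ACLY had HNE levels of 443 to 505 CPM and H2O2 levels of 501 to 550 CPM over both lines, and within each line the treatments did not overlap.

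The line-by-treatment interactions gave 0 members past the threshold, as for 0.00% of all genes, in edgeR and 0 in DESeq2. At an unadjusted p under 0.05 there were 2 members for HNE (LSS and MVK) and 2 for H2O2 (FADS2 and SCAP), where 6.73% and 3.62% of all genes reached it. FADS2 had the larger H2O2 interaction, at -0.41. SCAP had H2O2 estimates of 0.18 in shControl and -0.05 in shHuR, an interaction of -0.23 (95% interval -0.45 to -0.00; adjusted p = 1.00 in edgeR). For INSIG1 the interaction was -0.08 (-0.29 to 0.14) with HNE and 0.09 (-0.12 to 0.31) with H2O2. These intervals leave room for moderate differences between the lines' responses.

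**Figure D4:**
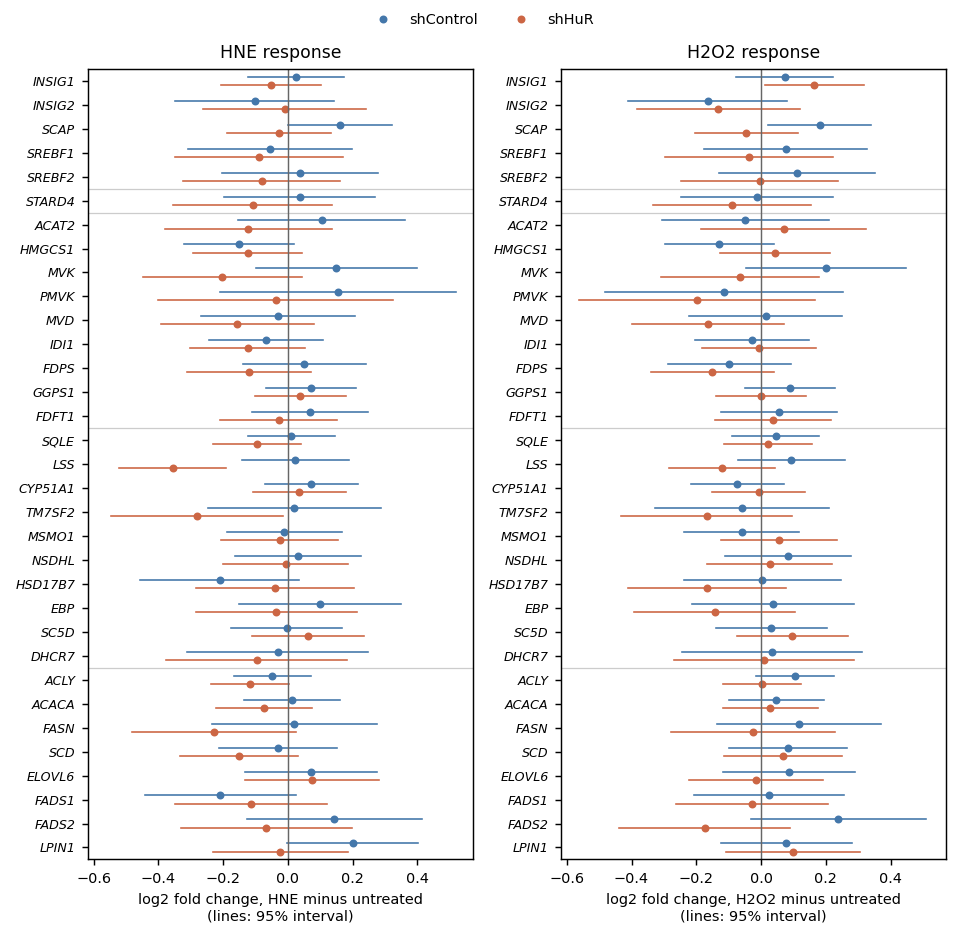
Log2 fold change of each member with HNE (left) and H2O2 (right) against untreated cells of the same line, grouped by role; points are estimates and lines 95% intervals. Most intervals cross 0, and LSS with HNE in shHuR (-0.36) lies farthest from it.

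Replicates of some groups differed more than others. The shControl HNE pair was the widest, with a median absolute log2 difference of 0.158 over the members and 0.142 over 8836 genes of similar level, against 0.0411 and 0.0588 in the shHuR HNE pair. The largest single gap was that of PMVK in the shControl HNE pair, at 12.8 and 20.7 CPM. SREBF2, FASN and DHCR7, chosen after their values were seen, differed in the same direction within 5 of the 6 pairs. In untreated shHuR cells, for example, SREBF2 was at 60.0 and 74.6, FASN at 265 and 328, and DHCR7 at 48.1 and 59.7 CPM.

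Base composition moved with several of these differences, and its part in them was not tested. Over the 33 members, Pearson's r between the GC content of the transcript and the replicate difference was 0.572 in the untreated shHuR pair and 0.444 in the shControl H2O2 pair. It was -0.27 to 0.382 in the other 4 pairs. With the average line difference r was 0.512 over the members and 0.0493 over 13598 coding genes, and with that of untreated cells it was 0.621 and 0.17. With the HNE response of shHuR r was -0.517 over the members and -0.165 over the coding genes. With the interactions it was -0.573 and -0.199 for HNE, and -0.639 and -0.148 for H2O2. In the other 8 comparisons r lay between -0.425 and 0.419 over the members. The members are points that share the same libraries. The members lower in shHuR include AT-rich transcripts such as STARD4 (34.2% GC), INSIG2 (36.9%) and MSMO1 (38.1%), and also the GC-rich SREBF1 (64.7%). Coding genes within 2 percentage points of the GC content of INSIG1 (46.0%) had a median line difference of 0.01, and those near STARD4 one of -0.07.

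Other genes of the pathway were taken from lists named by function, and for the line contrast their values are again a description. Among 13 genes of SREBP processing and turnover, 2 were higher and 2 lower past the threshold in shHuR, where 29.9% of all genes passed. UFD1L, a partner of the segregase that extracts ubiquitinated membrane proteins, was at 46.6 ± 1.97 CPM in shControl and 59.3 ± 3.89 CPM in shHuR, a log2 fold change of 0.35 (SE 0.0468). SPRING1, a factor needed for SREBP activation, was at 36.3 ± 1.73 and 44.0 ± 1.46 CPM (0.28, SE 0.0470; SD, n = 6 for each).

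Among 10 genes of sterol transport, uptake and storage, 3 were higher and 3 lower, where 14.1% and 15.9% of all genes were, which is also the background for the lists that follow. SOAT1, which esterifies cholesterol for storage, was at 135 ± 5.08 CPM in shControl and 95.9 ± 2.05 CPM in shHuR (-0.50, SE 0.0374), a larger estimate than that of any enzyme member. VLDLR and LRP8, both lipoprotein receptors, had log2 fold changes of -0.55 (SE 0.102) and -0.38 (SE 0.0658). The higher genes, outside the rule for named genes and chosen after their values were seen, were SCARB1, a receptor for high-density lipoprotein, at 0.22 (SE 0.0749), NPC2, a lysosomal cholesterol carrier, at 0.19 (SE 0.0586) and STARD3, at 0.17 (SE 0.0636). No other settings were run for these 3. Among 26 further genes of fatty acid and glycerolipid synthesis, 3 were higher and 8 lower, with ACSL4, which activates polyunsaturated fatty acids, at -0.56 (SE 0.0420) and DGAT2, a triglyceride synthase, at -0.67 (SE 0.128). ELOVL2, an elongase of polyunsaturated fatty acids, was among the higher ones, at 0.30 (SE 0.0793). Among 13 genes of the isoprenoid branches, 3 were higher and 2 lower. PGGT1B, a subunit of a prenyltransferase, was at -0.63 (SE 0.0623). FNTB, a subunit of another prenyltransferase, was at 0.54 (SE 0.145), from levels of 4.63 ± 1.60 CPM in shControl and 6.58 ± 0.857 CPM in shHuR. DHDDS, of dolichol synthesis, was at 0.29 (SE 0.0607). Of 12 genes of fatty acid oxidation, ACADL was higher at 0.42 (SE 0.117) and 4 were lower, with ACADVL, an acyl-CoA dehydrogenase of very long chains, at -0.34 (SE 0.0454).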

How the data were processed

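RNA from 12 cultures was read as directional, single-end 75-base libraries, per the labels' protocols. Per the submitters' processing notes the tools were cutadapt 1.8, Bowtie2 2.2, TopHat2 2.1, Cufflinks 2.2, Cuffnorm and Cuffdiff, with the human build GRCh37 (hg19). Whether counting used strand is not given in the sources used here, so reads of overlapping antisense genes cannot be separated. FDPS, SCD and HSD17B7 have pseudogene copies that could share reads.

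The authors deposited estimated counts per gene, of which 2.25% were not whole (0 members were affected), and FPKM values, scaled by them to gene length and library size. Counts were rounded, filtered with filterByExpr (minimum count 10) and scaled with TMM (factors 0.965 to 1.03). The 16005 genes left were tested with edgeR 4.0.16 (R 4.3.3) by its quasi-likelihood F-test on 6 group means. Average effects used the libraries of the treatments compared, with line or treatment as a covariate. P-values were Benjamini-Hochberg adjusted over all genes tested, with a threshold of 0.05, and an SE is the estimate divided by the root of F. Alternatives used DESeq2 1.42.0, limma 3.58.1 on log2(FPKM + 1), other scalings, filters and sets of libraries, a replicate block, and each library left out. Fits were tested on simulated data with planted log2 changes. At 0.25 the average line difference recovered 36.7%, the average HNE response 18.8% and the HNE interaction 0%. At 0.5 they recovered 70%, 74% and 12%, and at 1 they recovered 78.7%, 79.6% and 56%. False calls numbered 9, 9 and 17 among 15572, 15442 and 15573 unchanged genes. True calls at 0.25, 0.5, 1 and 2 were 18, 35, 37 and 48 for the line difference. They were 9, 37, 39 and 46 for HNE and 0, 6, 28 and 41 for the interaction. The simulation changed few genes and gave each gene the same spread in all groups. In the data 29.9% of genes passed for the line, and replicate spread differed between groups. These rates therefore need not hold for the data. FPKM was used for levels between genes, and the log2 scale for fold changes. A permutation test of 2 libraries against 2 could not pass the threshold. None was run for the 6 against 6 of the average line difference, which is given as a description. Nothing states that replicates came from different days, so p-values measure the spread between these cultures.

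Members and lists were chosen with earlier results of these data known. Named genes were the 5 regulators, each member past the threshold or the 3 with the smallest p, and up to 3 genes past it in each other list; some of these are not reported here. Levels of all members are described for the line contrast.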

Additional observations from a re-analysis of the deposited data

Results flagged for a closer look

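Each member's 6 libraries per line were searched for a single library far from the rest, 66 sets in all. In 4 of them the gap to the nearest library was too large a part of the range for Dixon's test, and chance alone gives about 1 in 20. ACAT2, the cytosolic acetyl-CoA acetyltransferase, was at 106 CPM in shControl HNE replicate 2, with the next library of the line at 87.7 CPM. FADS1 was at 49.3 CPM in the same library, with the next at 65.7 CPM. FASN was at 328 CPM in shControl H2O2 replicate 2, with the next at 286 CPM. ELOVL6 was at 32.6 CPM in shHuR HNE replicate 2, with the next at 29.98 CPM. The 6 libraries of a line span 3 treatments. Without shControl HNE replicate 2, the line difference of FADS1 was -0.27, and without shHuR HNE replicate 2 that of ELOVL6 was -0.38.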

How the results depend on the processing

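Over 22 alternatives, 17 members passed the threshold for the average line difference in the fit reported and 14 to 19 in the others, and INSIG1 kept its sign at -0.89 to -0.82. The count with HNE between the lines was 10 instead of 6 with DESeq2 and 2 with the compared groups fitted alone. Over all genes 1546 and 204 were then called, against 1324. With H2O2 the line count was 4 instead of 7 with limma on log2(FPKM + 1), no filter, and with the compared groups alone. Over all genes 675 and 817 were then called, against 1151. For HNE in shHuR, 1 member (LSS) passed instead of 0 with DESeq2, without a filter on low counts, and with the compared groups alone. Over all genes 107, 198 and 59 were then called, against 12. Leaving out each library in turn gave 1 to 9 members for the untreated line difference, 2 to 9 with HNE and 2 to 9 with H2O2, and 0 to 1 for HNE in either line. A lone replicate is then assumed to vary like the other groups. Where the line counts were lowest or highest, the count over all genes moved the same way. The cause of these changes was not tested, except that those fits have fewer samples. The line counts and the range of INSIG1 remain descriptions in every setting, as the choice of genes used the line contrast.

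Alternatives were computed for the genes given by the naming rule, and among these, estimates changed sign only when a library was left out, and none of these had passed the threshold. The ranges were -0.028 to 0.0304 for SCAP between the lines and -0.025 to 0.031 for SCAP between HNE and H2O2. For HNE they were -0.0702 to 0.055 for SREBF2 and -0.042 to 0.0017 for INSIG1, and for H2O2 -0.056 to 0.071 for SREBF1 and -0.011 to 0.13 for SREBF2. For the HNE interaction they were -0.038 to 0.23 for INSIG2, -0.13 to 0.072 for SREBF1 and -0.27 to 0.0495 for SREBF2. For the H2O2 interaction they were -0.097 to 0.17 for INSIG2, -0.26 to 0.0496 for SREBF1 and -0.26 to 0.053 for SREBF2.

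With the replicate number as a block, 17 members passed for the average line difference, 6 in untreated cells, 6 with HNE and 5 with H2O2, and 0 for every treatment comparison. Over all genes 4652, 1058, 1116 and 987 were then called for these line comparisons, in the same order. Over all genes the deviations of same-numbered libraries correlated at -0.176 to 0.218 in 15 pairs of groups, above 0.1 in 3. Over the members alone the range was -0.682 to 0.755. Whether same-numbered libraries shared a batch was not tested. With library size alone the median of all genes in the average line difference was 0.02. Over all genes, 2604 were then called higher and 2161 lower, against 2249 and 2538 in the fit reported. The size that could be called differed by comparison, as did the share of all genes called. ACACA passed at 0.11 in the average line difference, with 6 libraries a line, where 29.9% of all genes passed. LSS at -0.36 did not pass for HNE in shHuR, with 2 against 2, where 0.0750% did. Also with 2 against 2, SQLE at -0.28 passed for the line difference in untreated cells, where 7.98% did. The part of library number in this was not tested.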

Other observations

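Outside the members, ME1 and CPT2 from the other gene lists passed the threshold for HNE averaged over the lines. ME1, malic enzyme, which supplies NADPH for fatty acid synthesis, rose after HNE. Its shControl values went from 21.4 and 20.9 CPM without treatment to 27.7 and 31.1 CPM, and its shHuR values from 18.0 and 19.9 CPM to 31.1 and 30.01 CPM. The HNE libraries were above the untreated libraries in every case, with a log2 fold change of 0.58 (SE 0.0766, adjusted p = 0.00740 in edgeR). ME1 missed the threshold in 5 of 22 settings: the 3 limma fits on FPKM (adjusted p up to 0.170), and the fits without shHuR HNE replicate 2 (0.0579) or shHuR untreated replicate 2 (0.0940).

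CPT2, which completes the entry of long-chain fatty acids into mitochondria for oxidation, fell with HNE. Its shControl values went from 39.3 and 41.6 CPM without treatment to 32.2 and 32.7 CPM, and its shHuR values from 36.0 and 38.0 CPM to 27.5 and 27.3 CPM. Averaged over the lines, the change was -0.38 on the log2 scale (SE 0.0631, adjusted p = 0.0313 in edgeR), and the libraries did not overlap within a line. It missed the threshold in 10 of 22 settings, among them the fit with the replicate block (0.0578) and those without any 1 of the 4 untreated or the 2 shHuR HNE libraries (0.0769 to 0.198). Over all genes 0.247% passed for HNE.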
